A study of Mus musculus with 2 samples.

Results

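Central Treg cells were the tumor Treg cells in which a transcript of Tcf7 or Ccr7 was counted, 323 of the 2609 Treg cells and of the 9078 cells of any kind that passed the filters. They were chosen by their measured transcripts. A Treg cell was a cell with at least 1 unique molecular identifier (UMI, a tag that marks each captured RNA molecule) of Foxp3 and none of Cd8a or Cd8b1, and a central Treg cell also had no UMI of Il1rl1 and at least 1 of Tcf7 and Ccr7 together. They made up 12.4% of Treg cells (95% exact binomial interval 11.1 to 13.7). They were compared with the 2231 other Treg cells, which had no UMI of either gene and could have Il1rl1, and with 746 central Tconv cells, the conventional CD4 T cells with Tcf7 or Ccr7, with Cd4 and CD3 transcripts and with no Foxp3, Cd8a, Cd8b1 or Il1rl1.

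The cells came from C57BL/6J mice inoculated intradermally with 100000 cells of B16, a mouse melanoma line, or of B16-IL33, a B16 line engineered to secrete IL-33. T cells were sorted from the tumors on day 9, with no treatment, labeled with hashtag antibodies by tumor and loaded as 1 pool for 5′ single-cell RNA, hashtag and T cell receptor (TCR) sequencing. All cells of both tumors therefore shared 1 gene expression library. There were no replicates, so differences have no replicate check and no test, and every interval is a 95% interval that covers counting error only.

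Foxp3 encodes the transcription factor that defines Treg cells. Tcf7 encodes TCF-1, which keeps T cells in a naive or memory-like state, and Ccr7 encodes the receptor that guides T cells into lymph nodes along the chemokines CCL19 and CCL21. Central, or resting, Treg cells keep these genes and circulate through lymphoid organs, while effector Treg cells lose them, gain activation receptors and suppressive molecules, and settle in tissues and tumors.

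Of the 323 central Treg cells, 161 had Tcf7 only, 94 had Ccr7 only and 68 had both. The choice rested on few molecules, since 172 cells had 1 UMI of the pair, 63 had 2, 34 had 3 and 54 had at least 4, up to 15 in 1 cell. Tcf7 gave 350 UMIs in 229 cells and Ccr7 gave 340 UMIs in 162 cells. Foxp3 gave 586 UMIs, with a median of 1 per central Treg cell and up to 7. Its level was 462.5 CPM (UMIs of a gene per 1000000 UMIs of the group), against 770 CPM in the other Treg cells. Both groups were chosen by Foxp3, and a minimum of 1 UMI lifts the CPM of shallow cells more. These Foxp3 levels were thus partly set by the rule and by depth, and no difference is read from them. Of the 4 markers given for these cells, Foxp3, Tcf7 and Ccr7 had chosen them, so only Bcl2 could be checked. Just outside the rule stood 55 Treg cells that had Tcf7 or Ccr7 and also Il1rl1, in which the tissue repair factor Areg was at 1387 CPM and Bcl2 at 69.5 CPM.

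A transcript was more often seen in deeper cells. Central Treg cells had a median of 3437 UMIs (274 to 12238) and 1360 genes, against 2658 UMIs in the other Treg cells. Their share of Treg cells was 5.51% (25 of 454) below 1500 UMIs, 9.32% (64 of 687) up to 2500, 13.2% (76 of 574) up to 3500, 15.7% (73 of 465) up to 5000 and 19.8% (85 of 429) at 5000 or more. A cell without a UMI of either gene may still express it, so the other Treg cells can include missed central ones. Tcf7 was seen in 10.2% of all Treg cells (9.06 to 11.4, median 2780 UMIs) and in 5.71% of 70 macrophages (1.58 to 14.0, median 2320 UMIs), which should lack it, so these shares were not separable by their intervals. Ccr7 was seen in 7.28% of Treg cells and 1.43% of macrophages. Foxp3, which chose the Treg cells, was seen in 5.71% of macrophages (4 of 70; 1.58 to 14.0). A single UMI of it therefore does not settle that a cell was a Treg cell. How many central Treg cells were Tconv cells with a stray Foxp3 UMI was not tested. With every cell thinned to 1500 UMIs, the shares of Treg cells were 6.22% for Tcf7 and 4.59% for Ccr7, against 0 of 43 macrophages, which allows a share of up to 6.98%.

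A second productive TCR beta chain, which a droplet that held more than 1 T cell often shows, was common in central Treg cells. Of the 240 central Treg cells with a beta chain, 49 had at least 2, or 20.4% (15.5 to 26.1), against 7.11% (83 of 1168; 5.70 to 8.73) of the other Treg cells, 10.3% (55 of 534) of central Tconv cells and 8.86% (79 of 892) of CD8 T cells. At 5000 UMIs or more, the share was 39.5% (30 of 76) in central and 11.8% (28 of 237) in the other Treg cells. From 1500 to 2500 UMIs it was 0 of 38 in central Treg cells, with an interval up to 9.25%, and 4.81% (13 of 270) in the others. The share over all depths was close in cells with Tcf7 only (19.7%), Ccr7 only (20.3%) and both (22.2%). How many of these cells were doublets was not tested. Levels among the 191 central and 1085 other Treg cells with exactly 1 beta chain are given beside some of the results.

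**Figure D1:**
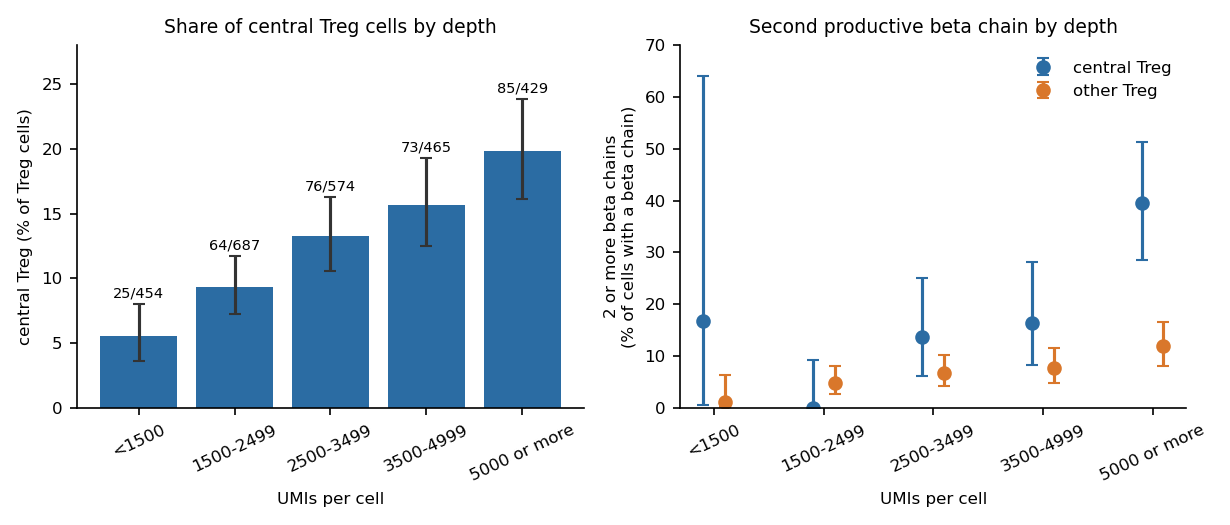
Share of Treg cells that were central (left) and share of cells with a beta chain that had at least 2 (right), in percent, by bins of UMIs per cell; bars are 95% exact binomial intervals. The central share went from 5.51% below 1500 UMIs to 19.8% at 5000 or more, and a second beta chain was found in none of 38 central Treg cells between 1500 and 2500 UMIs, while in the deepest bin 39.5% of central and 11.8% of other Treg cells had one.

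Each of the genes that chose the cells could be read where the other had made the choice. Among Treg cells without Il1rl1, Ccr7 stood at 165.2 CPM (139.2 to 194.6) in the 229 cells with Tcf7 and at 34.2 CPM (29.6 to 39.3) in the 1876 without it. The ratio was 4.83 (3.87 to 6.02), and 29.7% against 5.01% of cells had a Ccr7 UMI. With the roles exchanged, Tcf7 stood at 171.8 CPM in the 162 cells with Ccr7 and at 38.8 CPM in the 1943 without it, a ratio of 4.43 (3.52 to 5.54). Transcripts of the pair thus occurred together more often than in the rest of the Treg cells, and in cells with exactly 1 beta chain the ratios were 4.98 (3.74 to 6.62) and 4.31 (3.19 to 5.77).

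Genes of quiescence, survival and lymphoid homing were higher in central than in other Treg cells, and genes of activated, suppressive and tissue Treg cells were lower. Over 6600 genes with at least 100 UMIs in both groups together, and without the genes of the rule, 213 (3.23%) were at least 1.5-fold higher in central Treg cells and 688 (10.4%) at least 1.5-fold lower, with a median ratio of 0.928. Of the 213, 139 (65.3%) had fewer than 200 UMIs, against 31.0% of all genes compared, so many of these ratios rest on few molecules.

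The largest ratio was that of Igfbp4, a protein-coding gene (ENSMUSG00000017493, chr11:99041244-99054392, plus strand, GRCm38) whose secreted product binds insulin-like growth factors. It stood at 101.8 CPM (85.0 to 121.0) in central and 3.56 CPM (2.28 to 5.29) in other Treg cells, 28.6-fold higher (18.4 to 46.3). Its 129 UMIs came from 39 of the 323 central Treg cells, and its 24 UMIs in other Treg cells came from 11 of 2231. In cells with exactly 1 beta chain it stood at 90.7 against 1.05 CPM, the latter from 4 UMIs.

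Bcl2 (ENSMUSG00000057329, chr1:106538178-106714274, minus strand), which encodes a protein that blocks mitochondrial cell death and which was given as a marker of these cells, stood at 64.7 CPM (51.5 to 80.3) in central and 13.2 CPM (10.6 to 16.2) in other Treg cells, 4.91-fold higher (3.59 to 6.70). It was seen in 57 central and 72 other Treg cells, and the ratio was 5.76 in cells with exactly 1 beta chain. Of the 12 genes of the Bcl2 family, it alone was at least 1.5-fold higher, where 3.23% of all genes were. Bcl2l1, which encodes the related protein BCL-XL, stood at 37.1 against 94.1 CPM (ratio 0.394), and Pmaip1, which encodes the death-promoting protein NOXA, at 44.2 against 78.8 CPM (ratio 0.561).

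Actn1, which encodes the actin crosslinker alpha-actinin 1, was 6.93-fold higher (4.88 to 9.87), at 61.6 against 8.89 CPM, and it was seen in 56 central Treg cells. Pdlim1, an adaptor of actin fibers, was 5.33-fold higher, Rflnb, a filamin-binding protein, 5.05-fold higher and Evl, which promotes actin filament growth, 4.66-fold higher. The lincRNA Gm2682 was 4.45-fold higher, at 56.0 against 12.6 CPM. The transcription factor Klf3 was 3.82-fold higher (3.04 to 4.79), at 105.8 against 27.7 CPM, and Lef1, the closest relative of TCF-1 among T cell factors, was 3.01-fold higher (2.47 to 3.66), at 127.1 against 42.2 CPM. In cells with exactly 1 beta chain the ratios were 5.72 for Actn1, 3.71 for Klf3 and 2.79 for Lef1. Sh3bp5 was 2.91-fold and the tetraspanin Cd9 2.90-fold higher. Hspb1, a small heat shock protein, was 4.79-fold higher, but its 71 UMIs came from 5 central Treg cells, and 1 of them held 63.4%. With the rule applied to cells thinned to 1500 UMIs the ratio of Hspb1 was 1.25.

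**Figure D2:**
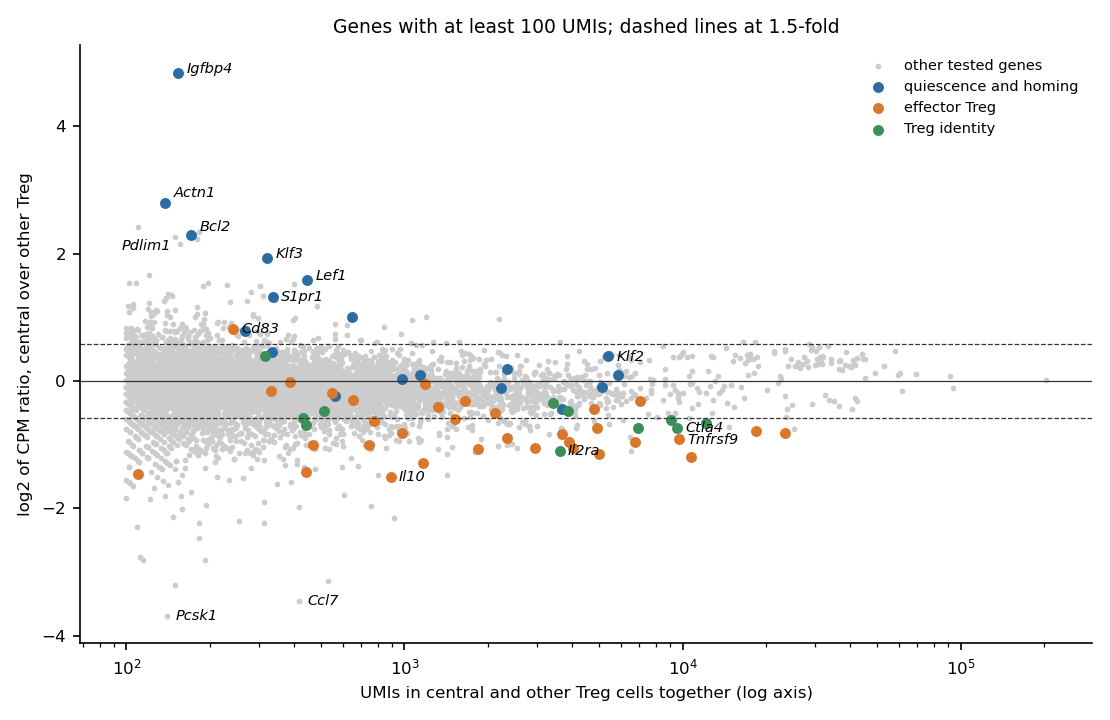
Each of the 6600 genes by its UMIs in central and other Treg cells together (x axis, log scale) and by the log2 of its CPM ratio, central over other Treg cells (y axis); colors mark the quiescence (blue), effector (orange) and Treg identity (green) lists and dashed lines 1.5-fold. The spread of the ratios is widest for genes with few UMIs, and Igfbp4, Actn1, Bcl2, Klf3 and Lef1 lie above it.

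Promoters are shown for the gene with the largest ratio, for the given marker and for an actin regulator that shared a motif with the former. Each window runs from 250 bases before to 50 after the gene's start (RefSeq, GRCm38.p6), on the gene's strand. Capitals mark a match to the KLF motif CCACACCC or its reverse complement GGGTGTGG. Evl has a further window at another start, which held no match and is not shown.
Igfbp4, chr11:99040994-99041293, plus strand: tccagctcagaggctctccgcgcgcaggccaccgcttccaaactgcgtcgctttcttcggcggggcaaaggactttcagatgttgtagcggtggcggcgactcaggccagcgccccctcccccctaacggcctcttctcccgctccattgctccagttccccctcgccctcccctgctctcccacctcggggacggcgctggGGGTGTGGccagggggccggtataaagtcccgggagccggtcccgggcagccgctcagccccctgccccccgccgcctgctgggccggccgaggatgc
Evl, chr12:108554470-108554769, plus strand: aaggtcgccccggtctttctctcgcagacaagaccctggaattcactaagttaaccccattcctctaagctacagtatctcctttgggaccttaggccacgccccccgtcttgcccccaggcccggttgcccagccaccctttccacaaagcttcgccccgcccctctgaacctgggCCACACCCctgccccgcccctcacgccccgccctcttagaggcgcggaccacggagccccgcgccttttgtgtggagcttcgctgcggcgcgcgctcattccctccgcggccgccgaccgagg
Bcl2, chr1:106714241-106714540, minus strand: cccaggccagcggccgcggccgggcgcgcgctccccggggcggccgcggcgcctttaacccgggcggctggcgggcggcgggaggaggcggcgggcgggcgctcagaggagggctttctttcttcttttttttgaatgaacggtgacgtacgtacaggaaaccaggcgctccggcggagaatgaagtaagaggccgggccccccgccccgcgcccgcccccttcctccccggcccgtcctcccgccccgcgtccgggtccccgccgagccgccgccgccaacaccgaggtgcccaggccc
The KLF motif stood in 5.59% (9 of 161) of the higher genes with a window, in 6.28% (32 of 510) of the lower genes and in 4.09% (1106 of 27025) of all genes. The FOXO motif GTAAACA (reverse TGTTTAC) stood in 2.48%, 3.92% and 4.05% of these, and the TCF/LEF motif CTTTGAT (reverse ATCAAAG) in 4.35%, 2.94% and 4.29%. None of the 3 motifs occurred in the windows of Bcl2, Actn1, Klf3, Lef1, Pdlim1 or Rflnb. These matches describe letters in the windows only.

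In the list of quiescence and homing genes, the median ratio was 1.34 and none was at least 1.5-fold lower. At least 1.5-fold higher were 8 of the 18 with enough UMIs, against 3.23% of all genes. Beside Igfbp4, Actn1, Bcl2, Klf3 and Lef1, these were S1pr1, the receptor that lets T cells leave lymphoid tissue (84.5 against 33.9 CPM, ratio 2.49), Foxp1, a transcription factor that maintains naive T cells (138.9 against 69.6 CPM, ratio 1.995), and Il6ra, a chain of the IL-6 receptor (ratio 1.72). Other genes known from naive T cells stood close to the other Treg cells. Klf2, which drives S1pr1, had a ratio of 1.31 (1.22 to 1.40) and the IL-7 receptor Il7r 1.14. The lowest was the integrin Itgb7, at a ratio of 0.734. The other 4 genes of the list had too few UMIs to be counted. Dapl1 gave 57 UMIs in central and 4 in other Treg cells (ratio 75.9; 28.1 to 288.2), Nsg2 47 and 24, Pik3ip1 30 and 52, and the repressor Bach2 20 and 15.

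Genes of Treg identity, those that Treg cells carry at high level, were lower as a group. Of 11, none was 1.5-fold higher and 7 were 1.5-fold lower, against 10.4% of all genes, with a median ratio of 0.655. Il2ra, the high-affinity chain of the IL-2 receptor, stood at 230.5 CPM (204.8 to 258.5) in central and 492.1 CPM in other Treg cells, a ratio of 0.468 (0.414 to 0.528). The inhibitory receptor Ctla4 stood at 766.4 against 1276 CPM and the transcription factor Ikzf2 at 553.3 against 922.7 CPM, each at a ratio of 0.600. In cells with exactly 1 beta chain the ratios were 0.542 for Il2ra, 0.631 for Ctla4 and 0.594 for Ikzf2. The costimulatory receptor Tnfrsf4 had a ratio of 0.636. Nrp1, a surface marker of thymus-derived Treg cells, was the only one above 1, at a ratio of 1.31 (0.976 to 1.74).

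Effector Treg genes, which mark activated and suppressive cells, were lower too. Of 33, 22 were at least 1.5-fold lower, against 10.4% of all genes, and 1 higher, with a median ratio of 0.567. Il10, an immunosuppressive cytokine, stood at 43.4 against 124.0 CPM (ratio 0.350), the costimulatory ligand Cd80 at a ratio of 0.362, the ATP-degrading enzyme Entpd1 at 0.372 and the integrin Itgae at 0.409. With the rule applied to cells thinned to 1500 UMIs, which left 122 central Treg cells, Itgae was at a ratio of 0.892 (0.590 to 1.30). The cytotoxic protease Gzmb stood at 640.9 against 1471 CPM (ratio 0.436) and the activation receptor Tnfrsf9 at 693.0 against 1311 CPM (ratio 0.529). With exactly 1 beta chain their ratios were 0.374 and 0.518. The exception was Cd83, a surface molecule of activated lymphocytes and dendritic cells, at 47.4 against 26.8 CPM (ratio 1.77; 1.30 to 2.38), with UMIs in 32 central Treg cells. Without cells that had at least 10 UMIs of macrophage, dendritic, B and NK cell markers, a setting chosen after seeing the data, the ratio of Cd83 was 1.15 (0.766 to 1.69).

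The tissue Treg list, drawn from genes known in cells with Il1rl1, had a median ratio of 0.525. Of 7 genes, 5 were at least 1.5-fold lower, against 10.4% of all genes, and none was higher. Areg stood at 474.4 CPM (437.2 to 513.9) in central and 873.1 CPM (851.0 to 895.7) in other Treg cells, a ratio of 0.543, and was seen in 79 central Treg cells. The rule kept Il1rl1 out of central cells only, so lower levels of this list were partly set by the rule. Among the other Treg cells without Il1rl1 Areg stood at 688.6 CPM. Over 10 settings, 1 of which took only other Treg cells without Il1rl1, the list median ran from 0.434 to 0.621. Dgat2, an enzyme of fat storage, had a ratio of 0.268, the proteoglycan Sdc4 0.450 and the inhibitory receptor Klrg1 0.505. Gata3, a transcription factor of tissue Treg cells, stood at 135.8 against 153.9 CPM, a ratio of 0.882 (0.746 to 1.04). In cells with exactly 1 beta chain the ratio of Areg was 0.669. Between those cells, 8 of the 18 quiescence genes were at least 1.5-fold higher, where 5.27% of all genes were, and 20 of the 33 effector genes at least 1.5-fold lower, where 12.6% were.

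Chemokine and egress receptor genes were lower as a group. Of 14, 9 were at least 1.5-fold lower, against 10.4% of all genes, and S1pr1 alone was 1.5-fold higher. Ccr1 stood at 4.74 against 26.1 CPM (ratio 0.182), Ccr3 at 12.6 against 36.4 CPM (ratio 0.347) and Ccr2 at 308.6 against 684.7 CPM (ratio 0.451). Cxcr3, a receptor of Th1-type inflammation, was at 142.9 against 148.4 CPM, a ratio of 0.963 (0.817 to 1.13).

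**Figure D3:**
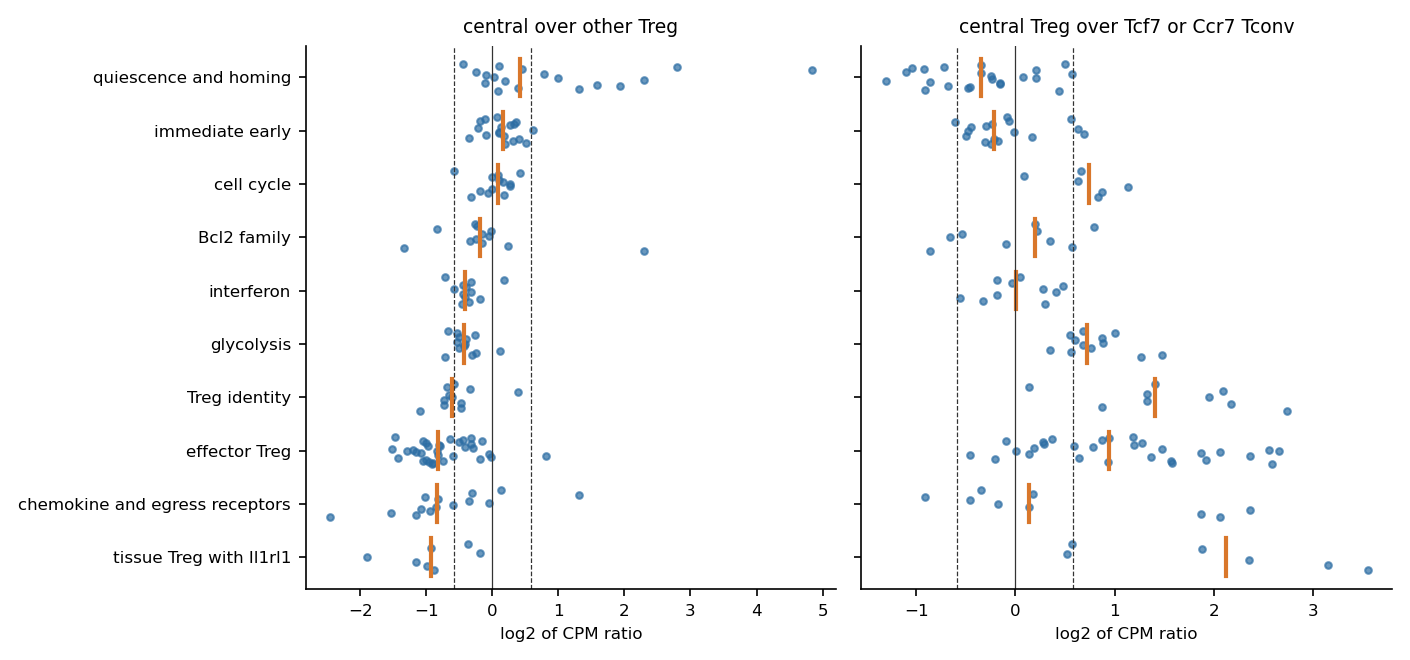
Log2 of the ratio of summed CPM in central over other Treg cells (left) and over central Tconv cells, those with Tcf7 or Ccr7 (right), for each gene of 10 lists with at least 100 UMIs; points are genes, orange bars are list medians and dashed lines mark 1.5-fold. The effector list had a median of 0.567 over other Treg cells and 1.92 over Tconv cells, and the quiescence list 1.34 and 0.789.

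The remaining lists stood nearer to the background, where 3.23% of all genes were at least 1.5-fold higher and 10.4% lower. Immediate early genes, which T cells induce within minutes of stimulation or handling, had a median ratio of 1.11 and 1 of 18 genes at least 1.5-fold higher (Ier2, 1.53). Cell cycle genes had a median of 1.06 with 0 of 13 past 1.5-fold. Interferon-induced genes had a median of 0.755 and 2 of 12 lower, glycolysis genes a median of 0.743 and 2 of 13 lower. Ribosomal protein genes had a median of 1.26, with 80 of 81 above 1 and 2 at least 1.5-fold higher. Of the helper genes, Cd40lg, the ligand by which helper T cells activate other cells, stood at 73.4 against 27.9 CPM (ratio 2.64; 2.03 to 3.40), and the cytokine gene Il17a at 3.95 against 27.7 CPM (ratio 0.143), from 2 central and 40 other Treg cells.

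Among the 12 lowest ratios, several came from few cells. The monocyte attractants Ccl7 (ratio 0.091) and Ccl2 (ratio 0.113) were seen in 45 and 54 other Treg cells, and 1 cell held 39.5% and 28.4% of their UMIs there. The ratio of Ccl2 was 1.23 with no upper limit on genes, and that of Ccl7 was 1.47 without cells that had at least 10 UMIs of macrophage, dendritic, B and NK cell markers. Ifitm1 (ratio 0.143) was seen in 28 other Treg cells, 1 of which held 50%. Genes spread over more cells were Pcsk1, a protease that processes hormones (1.58 against 20.4 CPM, ratio 0.077, seen in 86 other Treg cells), the riboflavin transporter Slc52a3 (ratio 0.109, 137 cells), Lrrc25 (ratio 0.213, 196 cells), Pdzk1ip1 (ratio 0.218, 134 cells) and Ermn (ratio 0.212, 132 cells). Cryba4 (ratio 0.147) and Gpr137b (ratio 0.203) completed the set with Il17a and Ccr1.

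Markers of other cells were compared in the same way. Summed macrophage and monocyte markers stood at 277.0 CPM in central and 423.7 CPM in other Treg cells, with no marker at 0 in either, and 13.9% and 14.5% of cells had any. In cells with exactly 1 beta chain the order was opposite, at 189.4 against 91.1 CPM. Dendritic cell markers stood at 1155 against 884.4 CPM, and 1 central cell held 713 of the 1463 UMIs. Xcr1, Clec9a and Itgax were at 0 in central Treg cells, with only 6, 4 and 12 UMIs in other Treg cells. Fscn1 gave 18 UMIs in central and 2 in other Treg cells (ratio 47.95; 11.48 to 426.2), Cacnb3 13 and 10, Flt3 5 and 1, and Ccl22 2 and 7. The class II genes H2-Aa (ratio 1.79) and H2-Eb1 (ratio 1.57) were higher in central Treg cells, yet 1 cell held 80.2% and 67.3% of their UMIs. Without the top cell of each group their ratios were 0.547 and 0.756. B cell markers stood at 404.9 against 541.7 CPM with none at 0 in central Treg cells, and NK cell markers at 42.6 against 18.7 CPM, with Klrd1, a receptor chain of NK and CD8 T cells, at a ratio of 2.38. Melanoma markers gave 11 UMIs, with Tyr at 0. T cell genes stood at 4090 against 4522 CPM and were seen in 98.5% of central Treg cells.

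The shares of cells with a UMI gave the same picture at equal depth. With each cell thinned to 1500 UMIs, which left out 25 of 323 central and 426 of 2231 other Treg cells, Igfbp4 was seen in 8.39% against 0.332%, Bcl2 in 10.1% against 1.99%, Klf3 in 15.4% against 4.21% and Lef1 in 15.1% against 6.93%. Before thinning, Igfbp4 was seen in 12.1% against 0.493% and Bcl2 in 17.6% against 3.23%. In macrophages thinned alike, Igfbp4 was seen in 4.65% and Klf3 in 6.98%. Il2ra was seen in 23.2% of central and 40.2% of other Treg cells, Ctla4 in 50% and 69.2%, Tnfrsf9 in 41.6% and 67.3%, and Areg in 17.1% and 26.0%.

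The central Treg cells were not uniform, and those with transcripts of both genes stood farthest from the other Treg cells. Igfbp4 was at 215.2 CPM (165.7 to 274.8) in cells with both, 66.8 CPM with Tcf7 only and 67.3 CPM with Ccr7 only. Bcl2 was at 141.2 CPM with both, 35.2 CPM with Tcf7 only and 49.9 CPM with Ccr7 only, where the intervals of the last pair overlapped (21.5 to 54.3 and 30.5 to 77.0). Actn1 was at 154.7 CPM with both, 44.0 CPM with Tcf7 only and 17.5 CPM (7.02 to 36.0) with Ccr7 only, the latter not separable from 8.89 CPM (6.78 to 11.4) in other Treg cells. For all 3 genes the intervals of cells with both overlapped those of the central Tconv cells, which stood at 218.1, 117.4 and 117.0 CPM. Of the 18 quiescence and homing genes, 10 were at least 1.5-fold higher in cells with both than in other Treg cells, where 8.39% of all genes were. There were 8 with Tcf7 only (5.5% of all genes) and 7 with Ccr7 only (7.15%). Dendritic cell markers were also highest with both, at a median ratio of 3.62 with 4 of 4 genes at least 1.5-fold higher. Their median was 0.158 with Tcf7 only and 0.955 with Ccr7 only, and 1 central Treg cell held 713 of the 1463 UMIs of this list.

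The activation genes had the opposite order. Il2ra was at 107.6 CPM (73.6 to 151.9) with both, 230.4 CPM with Tcf7 only and 321.6 CPM with Ccr7 only, against 423.0 CPM in other Treg cells without Il1rl1 and 34.6 CPM in central Tconv cells. Areg was at 124.4 CPM with both, 423.9 CPM with Tcf7 only and 805.3 CPM (719.9 to 898.1) with Ccr7 only, above the 688.6 CPM of other Treg cells without Il1rl1. Ccr8, a chemokine receptor of tumor Treg cells, was at 70.6, 91.5 and 239.4 CPM in these groups, against 199.2 CPM. The effector list followed this order, with median ratios over the other Treg cells of 0.436, 0.567 and 0.647. It had 27 of 33 genes at least 1.5-fold lower in cells with both, where 26.5% of all genes were, 24 with Tcf7 only, where 15.5% were, and 18 with Ccr7 only, where 16.7% were.

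**Figure D4:**
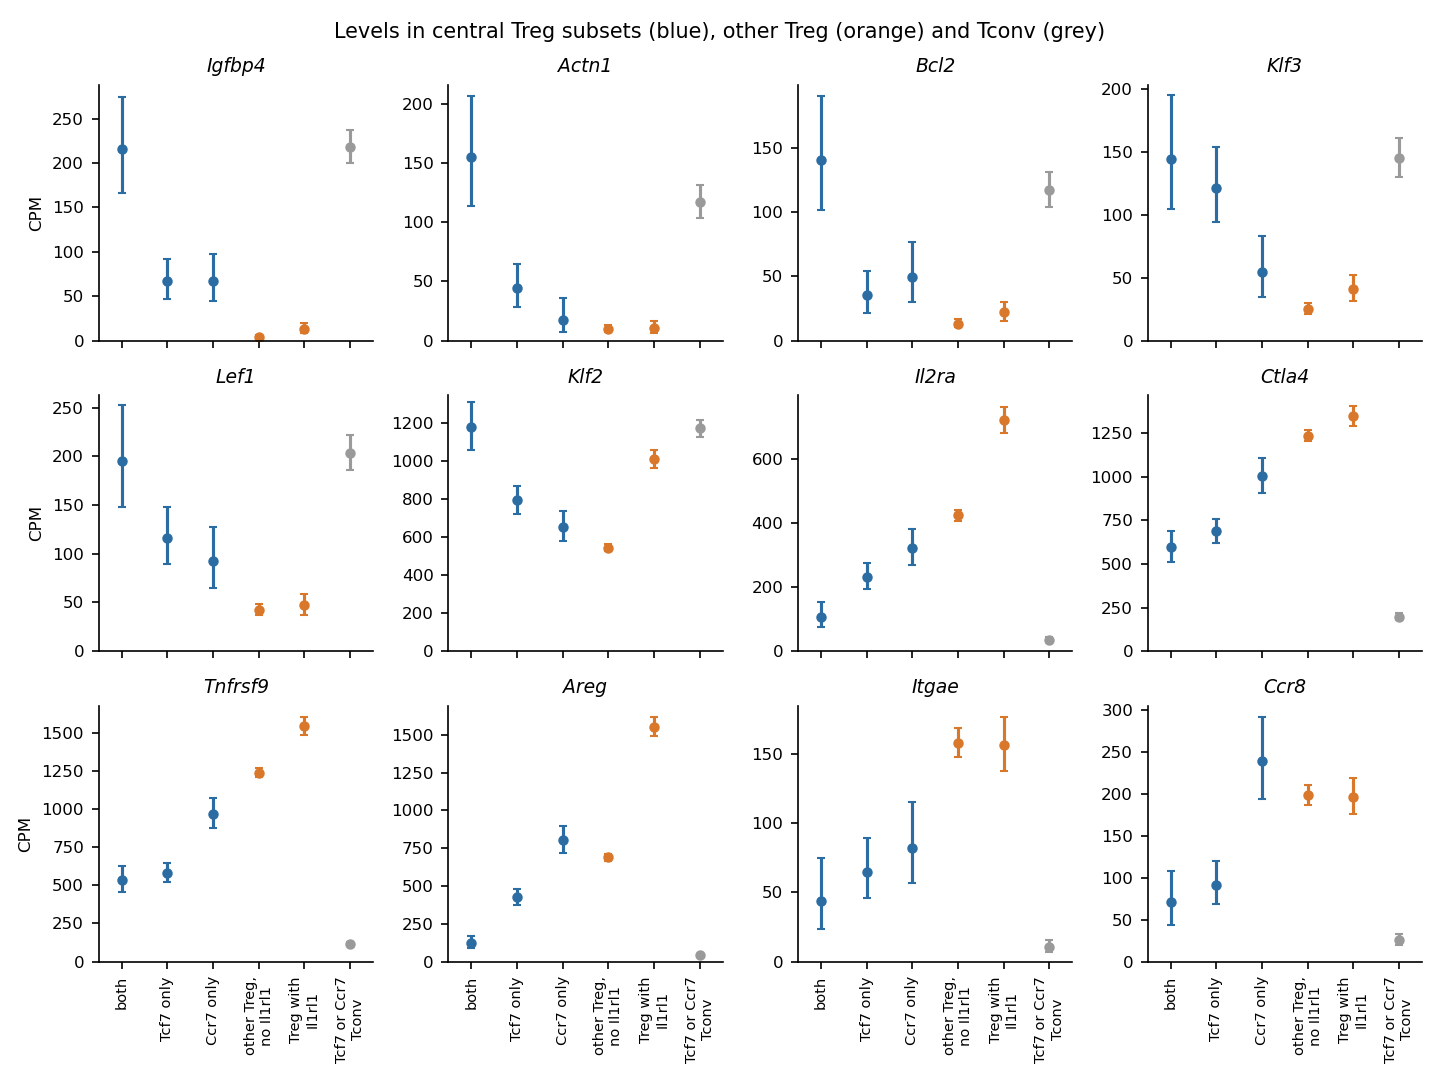
Summed level of 12 genes in CPM, with exact 95% Poisson intervals, in central Treg cells with both genes, Tcf7 only or Ccr7 only (blue), in other Treg cells without Il1rl1 and in Treg cells with Il1rl1 (orange) and in central Tconv cells (grey). Among the Treg groups Igfbp4 was highest with both genes (215.2 CPM), near the 218.1 CPM of central Tconv cells, while Areg went from 124.4 CPM with both to 805.3 CPM with Ccr7 only.

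Cells with Ccr7 only also stood apart by genes of cell division. The cell cycle list had a median ratio over the other Treg cells of 1.85 in cells with Ccr7 only, with 11 of 13 genes at least 1.5-fold higher, against the 7.15% of all genes. The median was 0.663 with Tcf7 only and 0.507 with both. Stmn1, which regulates microtubules in dividing cells, was at 184.5 CPM with Ccr7 only, 96.8 CPM with Tcf7 only and 40.4 CPM with both, and the topoisomerase Top2a at 124.7, 52.8 and 37.0 CPM. The mitosis gene Birc5 was at 94.7 CPM with Ccr7 only, from 10 of 94 cells, against 23.1 CPM in the cells with Tcf7. Among genes with at least 50 UMIs, the highest ratios of cells with Ccr7 only over the cells with Tcf7 were those of Cxcl2 (11.06) and Lgmn (10.55). Of their UMIs with Ccr7 only, 1 cell held 54.9% and 61.4%. Lgals3 (3.47) and Ifitm3 (3.18) were higher too, and 1 cell held 34.4% and 43.7%. Penk, the enkephalin precursor found in activated Treg cells, was 5.24-fold higher in the same comparison, at 381.5 against 72.8 CPM. Its UMIs with Ccr7 only came from 13 cells, and 1 held 37.3%. These ratios rest on few cells, and the genes in this comparison were named after their values were seen.

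More transcripts of the pair went with larger differences. In the 151 central Treg cells with at least 2 UMIs, Igfbp4 was at 168.8 CPM (138.7 to 203.4) against 30.9 CPM (18.6 to 48.2) in the 172 cells with 1 UMI, and Bcl2 at 104.3 against 22.8 CPM. Il2ra was at 151.9 against 313.7 CPM and Areg at 379.0 against 575.5 CPM. Cells with 1 UMI thus lay nearer to the other Treg cells in all 4 genes. The 151 cells include all 68 with both genes, so this comparison is not separate from the one between cells with both, Tcf7 only and Ccr7 only. They were also deeper, with a median of 3782 against 3236 UMIs. Of those with a beta chain, 22.7% against 18.2% had at least 2.

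Central Treg cells had higher Treg identity, effector and tissue genes than central Tconv cells, and lower quiescence genes. Over 4042 genes with at least 100 UMIs, 371 (9.18%) were at least 1.5-fold higher in central Treg than in central Tconv cells and 102 (2.52%) at least 1.5-fold lower, with a median ratio of 1.07. Treg identity genes were at least 1.5-fold higher in 8 of 9 (median 2.65), effector genes in 20 of 29 (median 1.92) and tissue genes in 4 of 6 (median 4.41), with none lower in these lists. Il2ra was at 230.5 against 34.6 CPM (ratio 6.67; 5.21 to 8.62), Ikzf2 had a ratio of 4.52, Ctla4 of 3.88, Tnfrsf9 of 6.01 and Gzmb of 5.88. Areg had a ratio of 11.7 (474.4 against 40.4 CPM), Klrg1 of 8.89 and the relaxin gene Rln3 of 9.10.

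The class II genes gave the other high ratios over central Tconv cells, with H2-Eb1 at 25.1, H2-Aa at 20.1, H2-Ab1 at 12.1 and the invariant chain Cd74 at 9.93. In central Treg cells 1 cell held 67.3%, 80.2%, 54.2% and 36.4% of their UMIs. Without cells that had at least 10 UMIs of macrophage, dendritic, B and NK cell markers, the ratios were 1.84 (0.512 to 6.40) for H2-Eb1 and 1.23 (0.447 to 3.14) for H2-Aa. Of 12 glycolysis genes, 9 were at least 1.5-fold higher (median 1.65), among them the glucose transporter Slc2a1 (ratio 2.40), and 5 of 6 cell cycle genes (median 1.68). Over all genes in this comparison, 9.18% were.

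Quiescence and homing genes were lower in central Treg than in central Tconv cells, with 8 of 22 at least 1.5-fold lower, none higher and a median ratio of 0.789. Over all genes in this comparison, 2.52% were at least 1.5-fold lower. Igfbp4 had a ratio of 0.467 (0.382 to 0.567), Bcl2 of 0.551, S1pr1 of 0.533 and Bach2 of 0.404. The cytokine genes Tnfsf11 (ratio 0.252) and Tnfsf8 (ratio 0.356), the granzyme gene Gzmk (ratio 0.353) and the chemokine gene Ccl8 (ratio 0.387) were also among the 8 lowest. The lowest ratios of all, those of the hemoglobin genes Hba-a1, Hbb-bs and Hba-a2, came from 1 to 4 Tconv cells.

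Across genes the central Treg cells lay between the other Treg cells and the central Tconv cells. Where other Treg cells are set at 0 and central Tconv cells at 1 on the linear CPM scale, the median position of central Treg cells was 0.528 over 26 genes at least 2-fold higher in Tconv cells and 0.525 over 254 genes at least 2-fold lower, each with at least 500 UMIs. With exactly 1 beta chain in all groups, the medians were 0.517 and 0.523. Cells with both genes lay at 0.801 and 0.716, those with Tcf7 only at 0.544 and 0.562, and those with Ccr7 only at 0.223 and 0.378. The position of cells with at least 2 beta chains was 0.620 and 0.581. The other Treg cells enter both axes of such a comparison, so the position is a description.

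**Figure D5:**
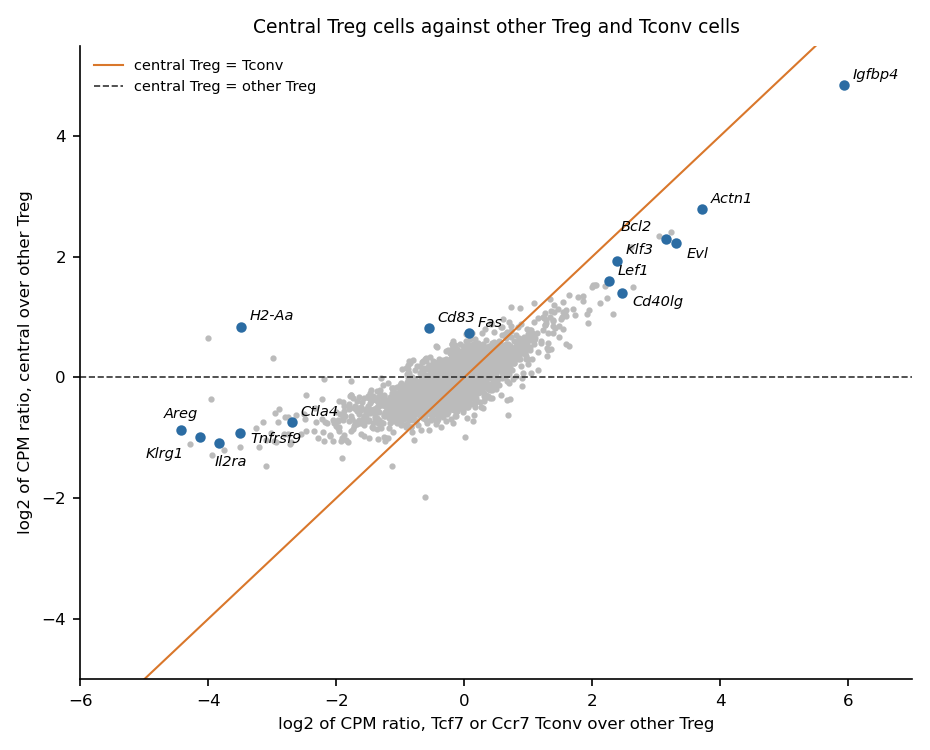
Genes (grey, named ones blue) by their log2 ratio of CPM in central Tconv over other Treg cells (x axis) and in central over other Treg cells (y axis), with a dashed line where central and other Treg cells are equal and an orange line where central Treg and Tconv cells are equal. Genes higher in Tconv cells mostly lie above 0 and genes lower in Tconv cells below 0 on the y axis, at a median position of 0.528 and 0.525 of the way to Tconv cells.

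Genes higher or lower in central Treg cells than in both of these groups were also counted. Of the 213 genes higher than in other Treg cells, 131 could be compared with Tconv cells as well, and 94 of these were higher still in central Tconv cells. At least 1.5-fold above both groups were 8 of the 131, where 9.18% of all genes compared with Tconv cells were above those cells. Apart from TCR segments there were 7. They included H2-Aa and H2-Eb1, whose UMIs came mostly from 1 cell, Cd83 (ratios 1.77 and 2.59, the former 1.15 without the cells with other cells' markers), the death receptor Fas (1.67 and 1.58), Ift27 and Ncbp1. Of the 206 lower genes that could be compared, 166 were lower still in central Tconv cells and 6 were at least 1.5-fold below both groups. Among all genes compared with Tconv cells, 2.52% were at least 1.5-fold below those cells.

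Clones, defined by the TCR, were mostly single cells among central Treg cells. A clonotype was known for 249 central Treg cells. A clone was called expanded if at least 2 Treg cells shared it, which held for 4 of these cells, or 1.61% (0.439 to 4.06), against 94 of 1415 other Treg cells, or 6.64% (5.40 to 8.07). The difference was -5.04 percentage points (-6.88 to -2.29), and it was -4.36 points (-6.59 to -0.887) in cells with exactly 1 beta chain. With the rule applied to cells thinned to 1500 UMIs it was -2.20 points (-4.622 to 3.495), an interval that includes 0. Treg cells with Il1rl1 had a share of 2.43%, and the other Treg cells without Il1rl1 7.45%. By the beta chain CDR3 alone, 5% of central and 13.7% of other Treg cells were expanded, a difference of -8.70 points. With clones of at least 3 Treg cells the difference was -0.186 points (-1.16 to 1.93) and the largest Treg clone that held a central cell had 3 Treg cells.

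The 4 cells gave 3 clones, all shared with the other Treg cells, of 248 central Treg clones in all. These made 1.21% of central and 0.220% of other Treg clones. Beside them, 1 clone was shared with Tconv cells and 1 (0.403%) with CD8 T cells. The clone shared with CD8 T cells held 1 central Treg and 1 CD8 T cell and is not shown. The others are shown by the nucleotides of their CDR3 loops, where capitals mark the codons of the conserved first cysteine and last phenylalanine.
Clone A alpha, TRAV9-4 with TRAJ53: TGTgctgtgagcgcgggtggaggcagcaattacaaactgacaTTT
Clone A beta, TRBV3 with TRBJ2-7: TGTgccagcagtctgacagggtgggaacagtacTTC
Clone B alpha, TRAV7N-6 with TRAJ40: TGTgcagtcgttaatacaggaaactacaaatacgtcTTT
Clone B beta, TRBV29 with TRBJ2-2: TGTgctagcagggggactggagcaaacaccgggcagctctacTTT
Clone C beta, TRBV19 with TRBJ2-5: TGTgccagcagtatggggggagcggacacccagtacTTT
Clone D alpha, TRAV7D-5 with TRAJ37: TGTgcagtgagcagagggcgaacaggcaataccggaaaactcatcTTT
Clone D beta, TRBV20 with TRBJ2-4: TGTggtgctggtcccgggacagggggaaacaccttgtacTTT
Clones A and B each held 1 central and 1 other Treg cell. Clone C, known by its beta chain only, held 2 central and 1 other Treg cell, and clone D held 1 central Treg and 1 Tconv cell. No cell of these clones had a second beta chain. Among the clones of the other Treg cells, 16 (1.17%) were shared with Tconv cells.

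The tumor of origin was known for few cells, because most cells had no hashtag UMI that matched a tag. Of the 323 central Treg cells, 48 (14.9%) had tags of 1 tumor only. Of the Treg cells assigned in this way, 44 of 245 (17.96%; 13.4 to 23.4) from B16 tumors and 4 of 55 (7.27%; 2.02 to 17.6) from B16-IL33 tumors were central. The difference, B16-IL33 minus B16, was -10.7 points (-18.2 to 0.605), an interval that includes 0. It was -16.5 points for the tags numbered 1 and -7.37 points for those numbered 2. A second beta chain was found in 14 of the 44 and 1 of the 4 cells. At this depth a difference between the tumors was not detectable, and the animals behind each tag cannot be told apart.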

How the data were processed

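The authors sorted T cells from pooled tumors and deposited UMI counts per gene and barcode for 1 gene expression library (mm10, in a table that also held human genes), the counts of a hashtag library and a table of TCR contigs. The matrix header named Cell Ranger 3.1.0 and the submitters' processing notes Cell Ranger 6.1.1. Mouse genes were used, and barcodes with 200 to 2500 detected genes and under 5% mitochondrial UMIs were kept, after the study's filter. This left 9078 of 14035 barcodes with 26606999 UMIs (254 to 14063 a cell, median 2467), of which 5448 were in the TCR table. Of all barcodes, 11756 were also in the hashtag library, which was made from the same cells.

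UMIs were summed over the cells of a group and divided by the group's total (CPM). Ratios have exact conditional binomial intervals, levels exact Poisson intervals, shares Clopper-Pearson intervals, and differences of shares combine these bounds, all at 95%. Genes needed 100 UMIs over both groups, and 1.5-fold either way was the limit for a count. Macrophages had at least 3 UMIs of C1qa, C1qb and C1qc and none of Cd3d, Cd3e or Cd3g. A clone was a clonotype, and a tumor was assigned where all tag UMIs came from 1 tumor. No doublet caller was run; the upper limit on genes and second beta chains stood in for it. The members, lists and tests were chosen with earlier results of these data known. Named were list members, the given markers, and the 12 highest and 12 lowest genes against other Treg cells and 8 and 8 against Tconv cells, without TCR segments; a few genes are not reported here. Gene positions and starts follow GRCm38. UMI counts are not corrected for gene length, so levels were not compared between genes. Alternatives covered cell filters, the rule, depth, the UMI minimum and the definition of clones. The ratio code was tested on simulated data (Python 3.11.15, NumPy 2.4.6, SciPy 1.17.1, pandas 2.3.3).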

Additional observations from a re-analysis of the deposited data

Results flagged for a closer look

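Signal was present in data that no comparison used, with no control sample to set it against. Central Treg cells held 173 UMIs of human genes, 0.0137% of their mouse UMIs, against 0.0131% in other Treg cells. In the hashtag library they held 498225 UMIs that matched no tag, a median of 1481 per cell against 1396 in other Treg cells, beside 56 UMIs that matched a tag.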

How the results depend on the processing

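Counts and shares were recomputed under 13 alternatives and under 3 more that were chosen after seeing the data (only cells with exactly 1 beta chain, without cells with at least 10 UMIs of the macrophage, dendritic, B and NK cell lists, and without the top cell of each gene). Of 86 recomputed main values 64 stayed within the limits and 22 moved, and of 559 gene ratios and list medians 434 stayed, 115 moved and 10 changed direction. The causes were not tested unless the construction gives them (fewer cells or genes). The central share of Treg cells was 11.1% without cells with at least 2 beta chains, 14.7% with exactly 1, 5.79% with at least 2 UMIs of Tcf7 and Ccr7, 9.31% with at least 2 Foxp3 UMIs and 7.62% after thinning to 1500 UMIs. The Ccr7 ratio was 3.58 with no upper limit on genes, 6.30 without cells with at least 2 beta chains and 7.93 after thinning, where the Tcf7 ratio was 7.02. With at least 2 UMIs of the pair, 341 genes were higher and 1078 lower than in other Treg cells and 224 higher than in Tconv cells. With a minimum of 30 UMIs the counts were 625 and 1351 against other Treg cells and 978 and 486 against Tconv cells. Against Tconv cells, 194 genes were lower with no upper limit on genes, and 96 were higher and 27 lower after thinning. The difference in expanded clones was -2.20 points after thinning, -8.70 by beta CDR3 and -0.186 for clones of at least 3 cells.

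With no upper limit on genes the ratio of Ccl2 was 1.23 and the macrophage list median 1.41. The latter was 1.02 with at least 2 UMIs of the pair and 1.995 with at least 2 Foxp3 UMIs. After thinning the ratio of Ccl2 was 1.29. Without cells with 10 UMIs of other cells' markers the ratios were 1.47 for Ccl7, 0.956 for H2-Aa and 0.658 for H2-Eb1. Without the top cell they were 0.547 for H2-Aa and 0.756 for H2-Eb1. Over 11 settings the ratio of Igfbp4 ran from 14.7 to 86.9, Bcl2 from 3.03 to 7.91, Lef1 from 2.69 to 3.997 and Il2ra from 0.309 to 0.565. With at least 2 Foxp3 UMIs the ratios were 14.7 for Igfbp4, 3.03 for Bcl2, 0.692 for Ctla4 and 0.744 for Areg. The median of the Treg identity list was then 0.767. These values were nearer to 1 than those reported, while the ratio of Klrd1 moved away from 1, to 4.64. The genes past 1.5-fold were less stable. Of the 213 higher and 688 lower genes, 84 and 329 were also counted in cells with exactly 1 beta chain. With at least 2 Foxp3 UMIs 75 and 317 were, and after thinning 30 and 171, with fewer genes compared in each setting. No paired analysis was possible because the pool is 1 library and no result comes from a test across replicates. Shares and ratios are limited by 1 or 2 UMIs in most cells, and tumor shares by 48 tagged central Treg cells.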
